A study of Homo sapiens with 28 samples.

Results

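Lysosomes are the acidic compartments in which a cell breaks down proteins, lipids and sugar chains. The hydrolases in them work at low pH, which the vacuolar proton pump (V-ATPase) sets by moving protons across the membrane at the cost of ATP. Membrane proteins such as LAMP1 and LAMP2 line the compartment, and the transcription factors TFEB and TFE3 are known to drive many lysosomal genes when mTORC1 at the lysosomal surface is inactive. Hepatocytes use lysosomes to turn over proteins, organelles and lipoprotein lipids. The gene set described here holds 33 genes of this compartment among 63139 gene entries: 2 transcription factors, 4 membrane proteins and channels, 7 proteases, 4 genes of lipid hydrolysis, 8 glycosidases and 8 subunits of the proton pump. They were picked by name, but with earlier results of these data known. The shares of called genes below are therefore not those of a set chosen blind to the data. All 33 were counted in every library and passed the filter on low counts.

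The RNA came from HepG2, an established human liver cancer line, so that all results are for 1 line and for mRNA, not for enzyme activity. After 24 h without serum the cells were exposed for 24 h to TCDD at 100 nM (a dioxin), PFOS at 10 µM (a fluorinated surfactant), BPA at 75 µM (bisphenol A), TBTCl at 0.1 µM (a tin compound), or the DMSO vehicle that served as their control. Cadmium chloride (CdCl2) at 0.5 µM had water as its control. Each of the 7 groups had 4 libraries, described in the labels as independent experiments. Total counts ran from 28.9 M to 66.0 M per library (median 46.5 M), at which 3 counts are worth 0.0454 to 0.104 CPM (counts scaled to the library's total). The floor of 3 counts covers counting error only. As nothing ties a library to its own culture beyond the word experiment, p-values measure the spread between these libraries. The main tests took no account of replicate numbers, although 23 of the 28 libraries correlated best with their own number. Fits with the number as a block are given as alternatives.

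Per the series text, the submitters swapped the labels of TCDD and PFOS some time after the deposit. CYP1A1, which dioxins induce, lay between 2841 and 6410 CPM in the TCDD libraries and at no more than 16.1 CPM in the PFOS libraries under the present labels. Of 11 hepatocyte markers, which include ALB, APOB and HNF4A, all were expressed in every library. Over all tested genes, the BPA libraries stood apart on the first principal component, at -97.7 to -67.4 against -6.06 or higher in all other libraries. The TCDD libraries stood apart on the second, at 53.8 to 74.6 against at most 21.3 elsewhere. TBTCl replicate 4 stood apart from all libraries on the third, at 101. The TBTCl changes of CTSD, CTSH and ATP6V0E1, and the count for TCDD against TBTCl, are given with and without it. Other TBTCl means include it.

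TFEB and TFE3 bind the sequence CACGTG, and that core inside a longer palindrome is known as the element shared by many lysosomal genes. Promoter windows of RefSeq (GRCh38.p14, 250 bases before to 50 after a gene's start) were at hand for 21 of the 33 genes and were searched on both strands. CACGTG occurred in 7 of the 21 (33.3%), against 8.77% of 27305 genes with a window. The longer TCACGTGA, which contains it, occurred in 5 (23.8%), against 1.18% of genes, and TCACGTGA with a G before it and a C after it in 2 (9.52%), against 0.421%. The stretches around the start of those 5 genes are shown so that the element can be compared with the expression values, together with that of CTSL, which holds none. Each runs from 100 bases before the start to 10 after it (200 before for LAMP1), 5′ to 3′ on the gene's strand, with CACGTG and any longer form around it in capitals.
GAA (chr17:80101481-80101590, plus strand): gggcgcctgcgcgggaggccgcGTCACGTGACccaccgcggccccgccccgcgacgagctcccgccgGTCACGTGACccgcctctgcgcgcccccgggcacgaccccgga
MCOLN1 (chr19:7522524-7522633, plus strand): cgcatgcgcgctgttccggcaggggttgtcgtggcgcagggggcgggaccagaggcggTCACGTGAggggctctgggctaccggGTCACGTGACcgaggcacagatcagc
CTSA (chr20:45891235-45891344, plus strand): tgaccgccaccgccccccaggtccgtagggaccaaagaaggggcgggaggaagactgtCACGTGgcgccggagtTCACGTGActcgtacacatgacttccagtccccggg
ATP6V0D1 (chr16:67481148-67481257, minus strand): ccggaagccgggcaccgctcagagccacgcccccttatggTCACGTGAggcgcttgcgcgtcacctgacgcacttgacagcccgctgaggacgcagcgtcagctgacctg
LAMP1 (chr13:113297039-113297248, plus strand): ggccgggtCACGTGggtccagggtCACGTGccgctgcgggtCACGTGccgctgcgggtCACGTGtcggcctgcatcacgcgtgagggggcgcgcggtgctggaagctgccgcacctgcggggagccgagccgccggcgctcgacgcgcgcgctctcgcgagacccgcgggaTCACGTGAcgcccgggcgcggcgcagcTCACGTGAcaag
CTSL (chr9:87726019-87726128, plus strand): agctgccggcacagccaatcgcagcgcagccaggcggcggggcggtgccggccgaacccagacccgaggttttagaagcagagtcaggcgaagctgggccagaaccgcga

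LAMP1 held 6 copies of CACGTG in its window, the first 192 bases and the last 1 base before the start. GAA, the enzyme that degrades glycogen in lysosomes, held 2, at 76 and 31 bases before the start. MCOLN1, a cation channel, held 2 at 41 and 14 bases, and CTSA 2 at 42 and 25 bases. ATP6V0D1 held 1 at 59 bases, CTSD 1 at 47 bases and NEU1 1 at 126 bases before the start. A match describes these letters only, and a window without one says nothing of binding elsewhere.

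The genes differed widely in level. Per length of all annotated exons, the sphingolipid activator precursor PSAP was the highest. It stood at 1252 ± 50.2 TPM (abundance scaled to that length and library) in BPA and 1029 ± 152 TPM in DMSO (SD, n = 4 each). In DMSO it was followed by the sialidase NEU1 (281 ± 32.1 TPM), the protease CTSD (245 ± 65.2 TPM), LAMP1 (230 ± 19.2 TPM), CTSA (227 ± 39.0 TPM) and CTSB (224 ± 13.5 TPM). Each of these 5 lay within the larger SD of itself and its next neighbour in that order. By this measure the lowest were the glycosidase MANBA (16.5 ± 1.93 TPM), MCOLN1 (7.80 ± 0.818 TPM) and TFEB (5.35 ± 0.688 TPM), which lay more than their SDs apart. In BPA the order changed at the top, with CTSB at 764 ± 30.3 TPM in the place after PSAP. TPM rests on the union of a gene's GENCODE 29 exons and carries no correction for library composition. That length, up to 19341 bases for SCARB2, can exceed that of the expressed transcript, so the order between genes is approximate. MANBA, with 11743 bases, had 56.0 CPM in DMSO, against 15.2 CPM for CTSZ, which stood above it in TPM. CPM with TMM scaling serves for changes.

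**Figure D1:**
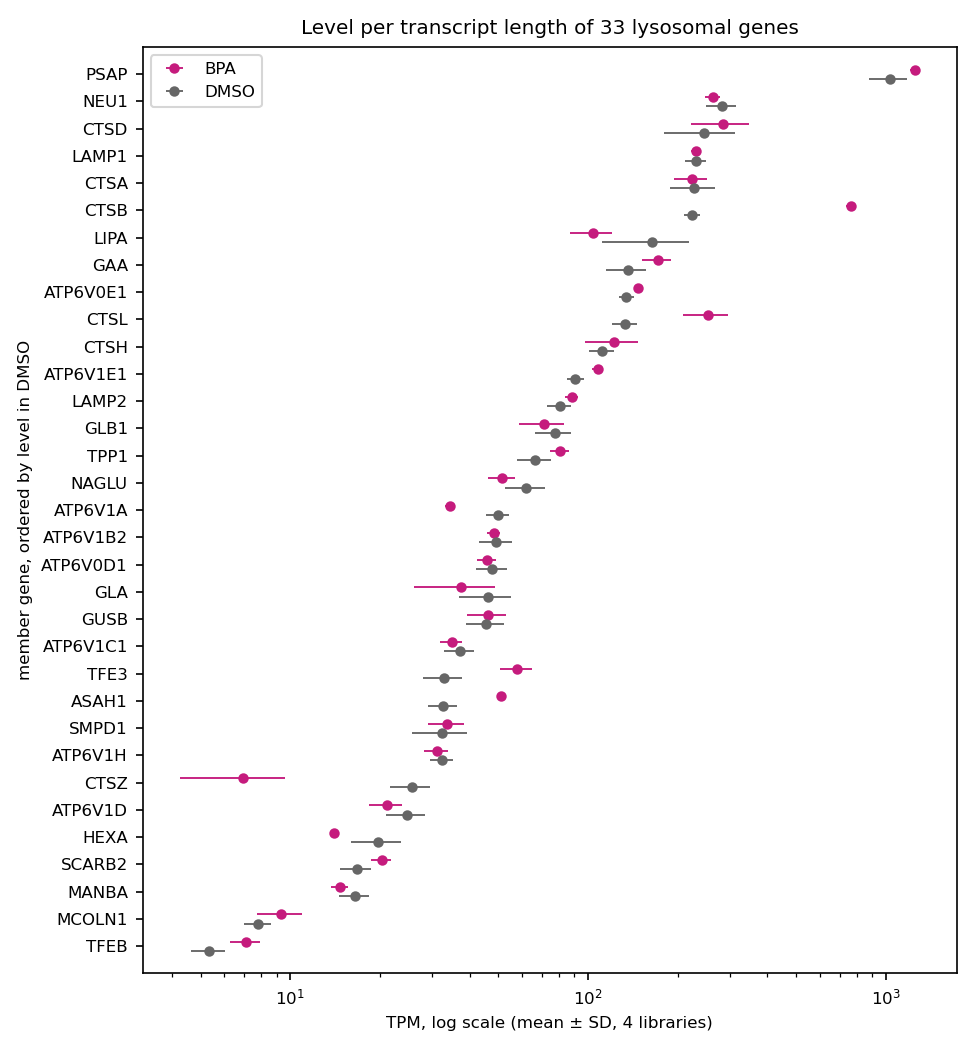
TPM of the 33 genes (horizontal axis, log scale) in BPA and DMSO, ordered from the highest to the lowest level in DMSO, with points for the mean and bars for the SD of 4 libraries. CTSB and CTSL stand clearly to the right of their DMSO level in BPA, and CTSZ, at 6.94 ± 2.69 against 25.6 ± 3.91 TPM, stands to the left.

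The comparisons of each chemical with its vehicle asked which lysosomal genes respond to it. BPA changed 13 of the 33 genes at an adjusted p under 0.05, of which 11 rose and 2 fell, and TCDD changed 4, of which 3 rose and 1 fell (edgeR quasi-likelihood test on all genes, Benjamini-Hochberg adjustment). CdCl2, PFOS and TBTCl changed none. ASAH1 was the only gene called under more than 1 chemical, and 17 genes were called under none. These counts stand against a background of called genes among all 18849 tested of 35.0% for BPA, 9.25% for TCDD, 0.0212% for CdCl2, 0.0159% for PFOS and 0.143% for TBTCl. The share of the 33 genes that BPA changed, 39.4%, was near its background. Split by direction, 33.3% of them rose, against 17.3% of all genes, and 6.06% fell, against 17.6% of all genes. For TCDD the backgrounds were 6.45% risen and 2.80% fallen. The median log2 fold change of the 33 genes under BPA was 0.19, against -0.02 for all tested genes. Since 4 of the 5 comparisons share the DMSO libraries, they are not independent of one another.

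**Figure D2:**
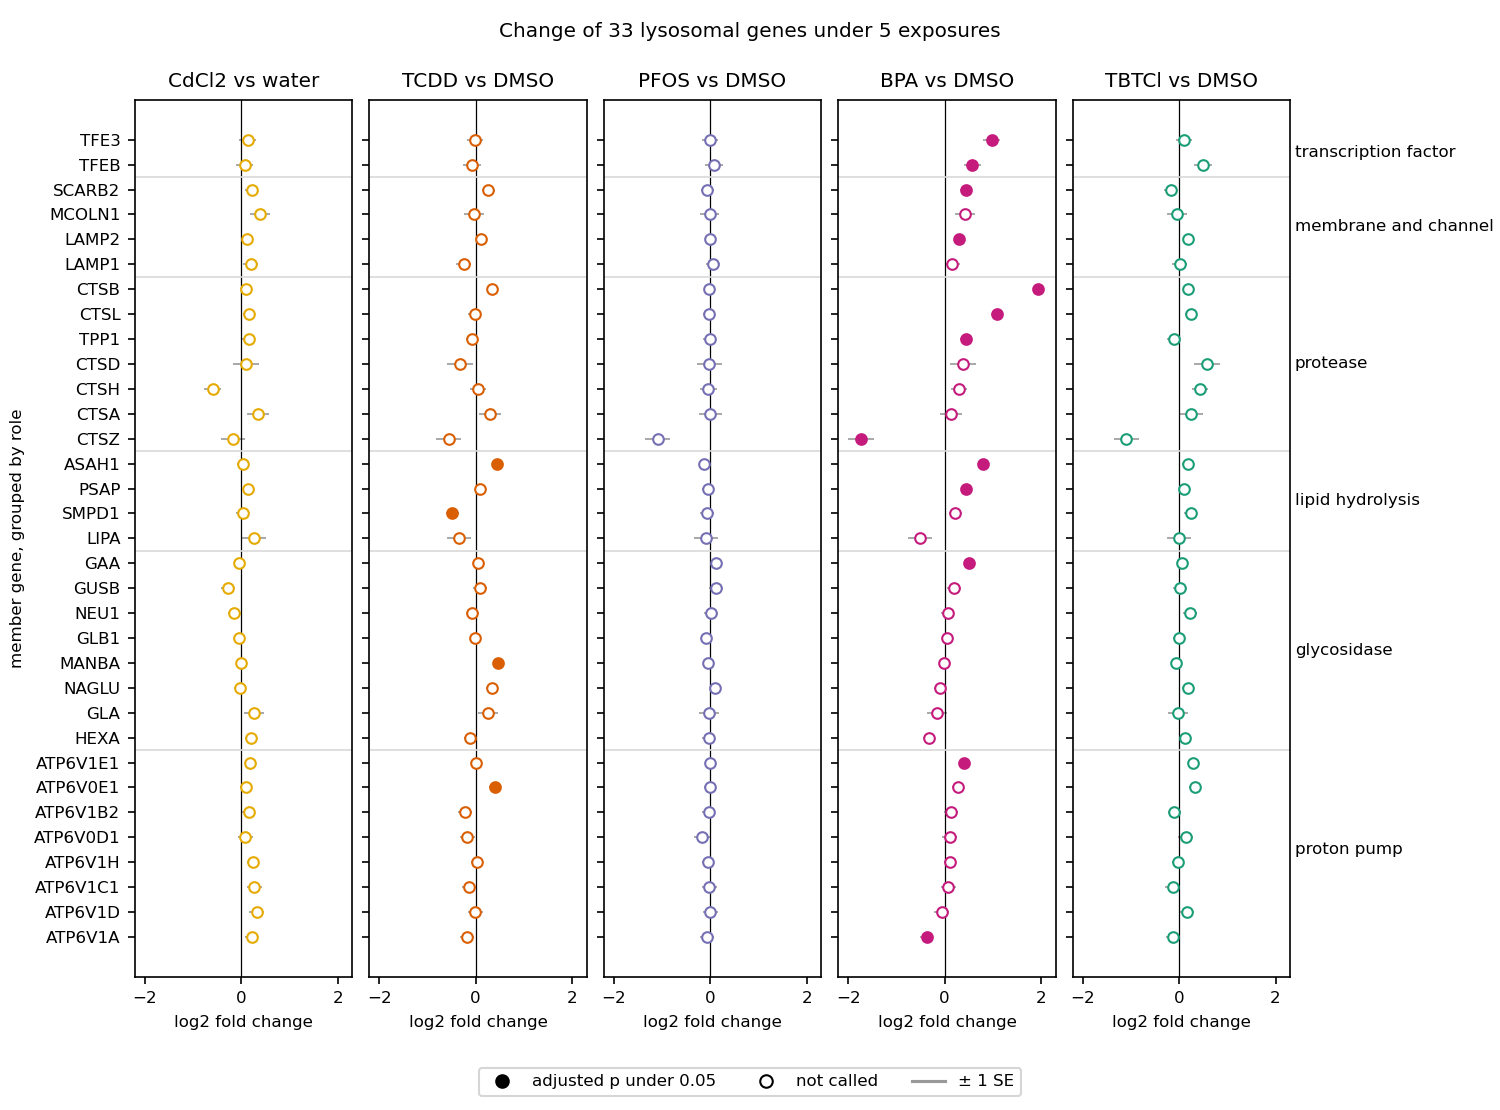
Log2 fold change (horizontal axis, bars ± 1 SE) of the 33 genes, grouped by role, in 5 panels for CdCl2 against water and TCDD, PFOS, BPA and TBTCl against DMSO. Filled points passed an adjusted p of 0.05: 13 in the BPA panel, 4 in the TCDD panel and none in the others.

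Both transcription factors rose under BPA. TFE3 (X chromosome, 49028726 to 49043486, GRCh38) had 86.5, 89.7, 73.0 and 71.8 CPM in the BPA libraries, against 38.3, 43.7, 47.3 and 33.9 CPM in DMSO. Every BPA library lay above every DMSO library, with a log2 fold change of 0.98 ± 0.17 (SE; edgeR adjusted p = 0.000102). TFEB had 12.8, 10.9, 14.4 and 14.1 CPM in BPA, against 9.14, 7.41, 9.46 and 8.95 CPM in DMSO. Here too the groups did not overlap, and the log2 fold change was 0.58 ± 0.18 (edgeR adjusted p = 0.0171). Without DMSO replicate 2 the TFEB change was 0.50 with an edgeR adjusted p of 0.0685, and with water in place of DMSO it was 0.44 (edgeR adjusted p = 0.0709). Of their relatives, MITF was near the floor, at 0.506 ± 0.0675 CPM in BPA and 0.292 ± 0.109 CPM in DMSO (SD, n = 4 each; edgeR adjusted p = 0.0632). TFEC was at 0 in all 4 BPA libraries and at most 0.0371 CPM in DMSO, and was not tested.

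Of the 4 membrane proteins and channels, SCARB2 and LAMP2 rose under BPA. SCARB2, the receptor that carries glucocerebrosidase to the lysosome, had 118, 131, 135 and 125 CPM in BPA, against 84.7, 102, 101 and 86.9 CPM in DMSO. The groups were separate, and the log2 fold change was 0.44 ± 0.13 (edgeR adjusted p = 0.0106). SCARB2 overlaps FAM47E on the opposite strand. Such overlaps, also of CTSA with PLTP, HEXA with HEXA-AS1 and GLA with RPL36A-HNRNPH2, leave the counts of these genes uncertain. MCOLN1 overlaps PNPLA6 on the same strand, and its counts are uncertain too. LAMP2, which also serves as a receptor in chaperone-mediated autophagy, averaged 159 ± 11.5 CPM in BPA and 129 ± 9.20 CPM in DMSO (SD, n = 4 each). Its change of 0.30 ± 0.11 passed the test (edgeR adjusted p = 0.0277), but not after leaving out BPA replicate 1 or 4 or DMSO replicate 2 or 3, when the adjusted p lay between 0.0559 and 0.0879. LAMP1, with 6 copies of CACGTG, averaged 430 ± 21.3 CPM in BPA and 384 ± 40.3 CPM in DMSO, a log2 difference of 0.16 with a 95% interval from -0.15 to 0.48 (edgeR adjusted p = 0.431). MCOLN1, the channel that releases lysosomal calcium, was at 12.0 ± 2.06 CPM in BPA and 8.95 ± 1.02 CPM in DMSO (edgeR adjusted p = 0.105). With the replicate number as a block, its log2 change of 0.41 had an edgeR adjusted p of 0.0441.

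The proteases held the largest changes in both directions. CTSB, a cysteine protease on chromosome 8, had 1798, 1766, 1904 and 1921 CPM in the BPA libraries, against 488, 483, 509 and 448 CPM in DMSO. No library of the other 6 groups exceeded 747 CPM. The fold change was 3.83, a log2 change of 1.94 ± 0.11 (SE; edgeR adjusted p = 1.95e-11). CTSL, another cysteine protease (chromosome 9, 87725519 to 87731393, GRCh38), had 209, 231, 167 and 168 CPM in BPA, against 88.0, 99.8, 97.0 and 81.3 CPM in DMSO. The lowest BPA library was above the highest of all other libraries, 139 CPM in TBTCl replicate 4, and the fold change over DMSO was 2.12 (edgeR adjusted p = 7.39e-07). TPP1, a tripeptidyl peptidase mutated in a childhood neuronal storage disease, averaged 171 ± 14.3 CPM in BPA and 126 ± 14.2 CPM in DMSO (SD, n = 4 each; edgeR adjusted p = 0.0109). All 4 BPA libraries of TPP1 were above all 4 DMSO libraries.

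CTSZ, a carboxypeptidase of the cathepsin family (chromosome 20, 58995185 to 59007247, GRCh38), went the other way. It had 3.39, 6.20, 5.83 and 2.87 CPM in BPA, against 18.0, 17.2, 11.6 and 13.9 CPM in DMSO. All BPA libraries lay below all DMSO libraries, at a log2 change of -1.74 ± 0.26 (SE; edgeR adjusted p = 1.94e-05). The DMSO level was itself the highest of the 7 groups. CTSZ averaged 15.2 ± 2.97 CPM in DMSO and 8.76 ± 1.52 CPM in water (SD, n = 4 each), and no water library reached the lowest DMSO library. That difference, 0.79 on the log2 scale, had an unadjusted p of 0.0046 and an edgeR adjusted p of 1.00 among all genes. With water in place of DMSO, the BPA change of CTSZ was -0.94 and was still called (edgeR adjusted p = 0.00738).

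CTSZ was also the gene nearest to a call under PFOS and TBTCl. It had 6.32, 5.73, 9.38 and 7.25 CPM in PFOS, and 4.44, 10.1, 7.26 and 6.75 CPM in TBTCl, all below the lowest DMSO library. Both log2 changes were -1.09 ± 0.26, with edgeR adjusted p values of 0.0898 for PFOS and 0.0821 for TBTCl. With the replicate number as a block these were 0.0400 and 0.0267, and both were also called with DESeq2 and with no filter on low counts. With water in place of DMSO, however, the CTSZ changes were -0.29 for PFOS and -0.29 for TBTCl, with edgeR adjusted p values of 1.00 and 0.689. For TBTCl the change was called without replicate 2 of that group as well, at -1.31 (edgeR adjusted p = 0.0320). In TCDD, CTSZ stood at 8.02, 8.23, 14.8 and 10.4 CPM, which overlapped DMSO (edgeR adjusted p = 0.204). The 4 CdCl2 libraries had 5.87 to 9.79 CPM, and the water libraries 7.20 to 10.8 CPM. The changes of CTSZ in the 4 DMSO comparisons share the same high DMSO libraries.

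The other proteases were not called under BPA. CTSD, an aspartic protease, had 241, 225, 329 and 360 CPM in BPA, against 161, 225, 287 and 211 CPM in DMSO, so that the groups overlapped (edgeR adjusted p = 0.268). CTSA, the protective protein that stabilises NEU1 and GLB1, averaged 426 ± 54.5 CPM in BPA and 388 ± 75.8 CPM in DMSO (SD, n = 4 each; edgeR adjusted p = 0.689). CTSH, an aminopeptidase, averaged 235 ± 51.7 CPM in BPA and 191 ± 19.7 CPM in DMSO (edgeR adjusted p = 0.169).

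**Figure D3:**
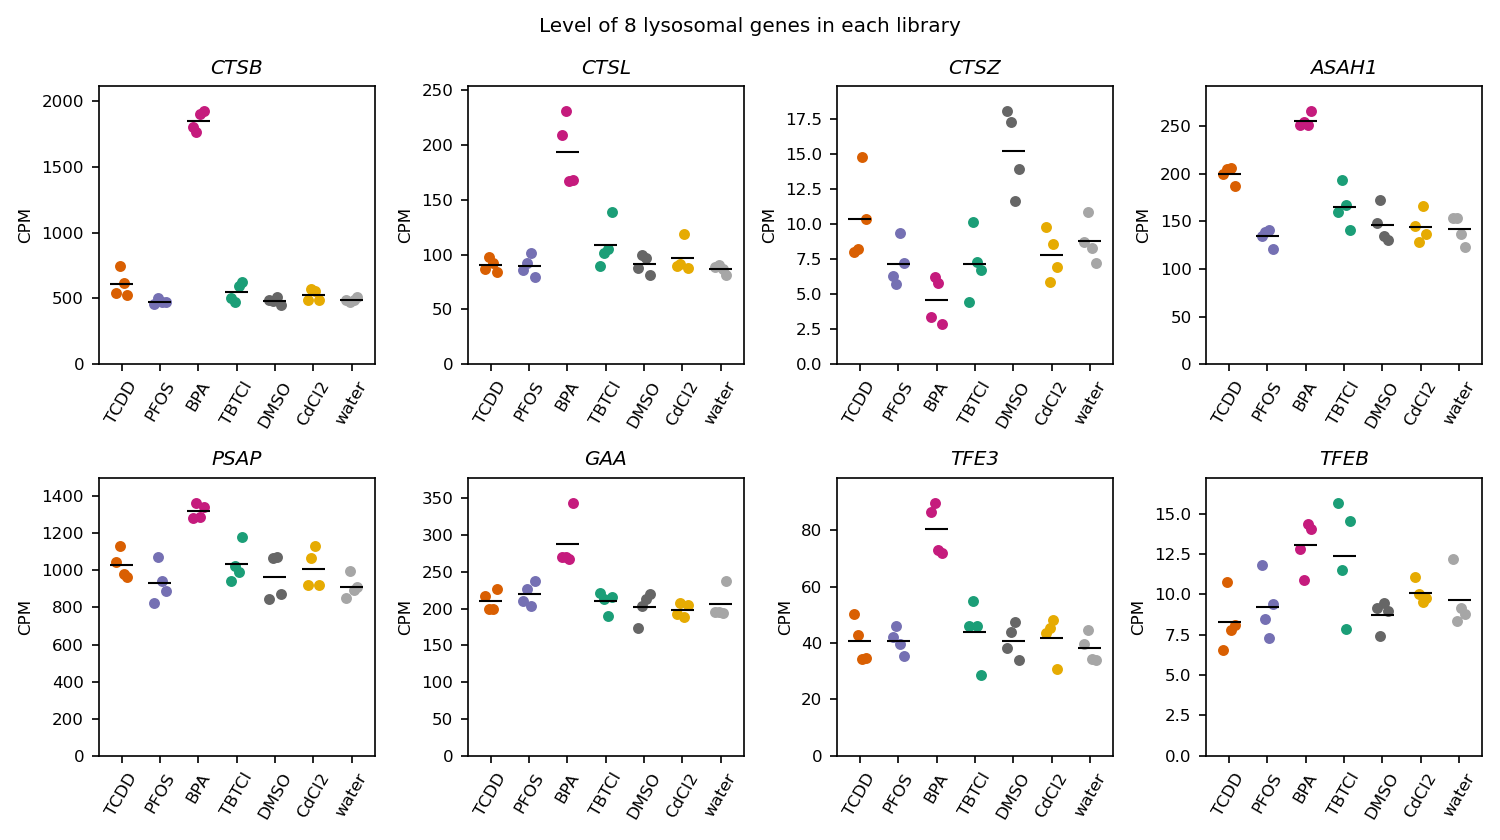
CPM with TMM scaling (vertical axes, each from 0) of 8 genes in all 28 libraries, with a point per library and a line for the group mean. The BPA points lie above those of all other groups for CTSB, CTSL, ASAH1, PSAP, GAA and TFE3, and for CTSZ the DMSO points lie above those of every group except TCDD replicate 3 at 14.8 CPM.

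In lipid hydrolysis, ASAH1 and PSAP rose under BPA. ASAH1, the acid ceramidase, had 251, 254, 251 and 265 CPM in BPA, against 148, 172, 134 and 130 CPM in DMSO. The groups were far apart, with a log2 fold change of 0.81 ± 0.11 (edgeR adjusted p = 3.24e-06). PSAP, whose products help the enzymes reach their lipids, had 1282, 1365, 1287 and 1340 CPM in BPA, against 844, 1066, 1075 and 872 CPM in DMSO. Its change was smaller, 0.45 ± 0.11 on the log2 scale, but again without overlap (edgeR adjusted p = 0.00289). The lipase LIPA, which frees cholesterol and fatty acids from lipoprotein lipids, averaged 165 ± 23.5 CPM in BPA and 234 ± 74.9 CPM in DMSO (SD, n = 4 each; edgeR adjusted p = 0.118). With the replicate number as a block it was called at -0.46 (edgeR adjusted p = 0.0360). The sphingomyelinase SMPD1 was at 30.0 ± 4.30 CPM in BPA and 25.8 ± 4.86 CPM in DMSO (edgeR adjusted p = 0.226). With water in place of DMSO the SMPD1 change was 0.38 and was called (edgeR adjusted p = 0.0395).

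Among the 8 glycosidases, GAA alone was called under BPA. It had 270, 270, 268 and 344 CPM in BPA, against 174, 203, 213 and 219 CPM in DMSO, at a log2 fold change of 0.51 ± 0.10 (edgeR adjusted p = 0.000375). The 4 BPA libraries were above all DMSO libraries, and replicate 4 was the highest of them. HEXA, a subunit of the enzyme that degrades GM2 ganglioside, averaged 57.7 ± 2.88 CPM in BPA and 72.2 ± 13.5 CPM in DMSO (SD, n = 4 each; edgeR adjusted p = 0.0534). With the replicate number as a block, the edgeR adjusted p of HEXA was 0.0303. HEXA was called as lower in 8 of 16 alternatives, among them DESeq2, upper-quartile factors and library size alone. The remaining 6 (GLA, GLB1, GUSB, NEU1, NAGLU and MANBA) had log2 changes from -0.15 to 0.19 and overlapping groups. MANBA, which cleaves mannose from sugar chains, was at 56.0 ± 4.40 CPM in BPA and 56.0 ± 4.85 CPM in DMSO, with a 95% interval of the log2 difference from -0.21 to 0.20.

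Of the 8 proton pump subunits, 1 rose and 1 fell under BPA. ATP6V1E1, part of the peripheral stalk, had 115, 116, 109 and 110 CPM in BPA, against 87.7, 94.2, 78.9 and 77.8 CPM in DMSO. All BPA libraries were above all DMSO libraries, at a log2 fold change of 0.41 ± 0.10 (edgeR adjusted p = 0.00324). ATP6V1A, the subunit that hydrolyses ATP, had 56.1, 58.2, 57.8 and 57.3 CPM in BPA, against 74.5, 85.0, 70.6 and 66.7 CPM in DMSO. The BPA libraries were lower throughout, but the change of -0.37 ± 0.14 was barely called (edgeR adjusted p = 0.0408). It was no longer called without any 1 of the 4 BPA libraries or without DMSO replicate 1, 2 or 3, when the edgeR adjusted p lay between 0.0517 and 0.131. With water in place of DMSO it was -0.24 (edgeR adjusted p = 0.202). The small membrane subunit ATP6V0E1 had 77.4 ± 1.96 CPM in BPA and 63.5 ± 6.41 CPM in DMSO without overlap, and was not called (SD, n = 4 each; edgeR adjusted p = 0.0721). ATP6V0D1, ATP6V1B2, ATP6V1C1, ATP6V1D and ATP6V1H had log2 changes from -0.06 to 0.13.

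Counted without a test, 12 of the 33 genes had all BPA libraries above all DMSO libraries and 2 had all below. Among all tested genes, 37.2% had groups that did not overlap, of which 20.1% lay above and 17.1% below. Summed over the 33 genes, the level was 7447 ± 214 CPM in BPA and 5096 ± 431 CPM in DMSO (SD, n = 4 each). CTSB made up 58.1% of the difference of 2351 CPM and PSAP 15.1%. Without CTSB the sums were 5599 ± 180 CPM in BPA and 4614 ± 418 CPM in DMSO. By role, the proteases summed to 3166 ± 128 CPM in BPA and 1514 ± 124 CPM in DMSO, while the proton pump subunits summed to 639 ± 19.6 CPM and 589 ± 68.2 CPM in the same order. In these bulk samples, a change in the share of cells that express a gene and a change in RNA per cell cannot be told apart.

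The scaling of the libraries bears on the smaller BPA changes. With upper-quartile factors, the median of all genes shifted by -0.13 on the log2 scale and 7 of the 33 genes rose and 3 fell, while 2239 of all genes rose and 4345 fell, against 3268 and 3320 with TMM. With library size alone, 7 rose and 3 fell, against 2169 and 4321 of all genes. Under both scalings HEXA joined CTSZ and ATP6V1A among the genes that fell. LAMP2, TFEB, SCARB2 and TPP1 kept their direction but were not called under either of these scalings. CTSB, CTSL, CTSZ, GAA, ASAH1, PSAP, TFE3 and ATP6V1E1 were called in all 16 alternatives run for them.

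Set against the promoter letters, CACGTG was present in 1 of the 7 genes that rose under BPA and had a window (GAA), in 0 of the 1 gene that fell and had a window (CTSZ), and in 6 of the 13 genes with a window that were not called. These 6 were ATP6V0D1, CTSA, CTSD, LAMP1, MCOLN1 and NEU1. Genes on chromosome 8, CTSB and ASAH1 among them, were not examined for it.

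BPA was also compared directly with the other chemicals that shared its vehicle, which asked whether the changes differed between chemicals. Of the 33 genes, 16 differed between BPA and TCDD, 13 higher and 3 lower in BPA, against 38.3% of all genes (17.8% higher and 20.4% lower). Between BPA and PFOS 11 differed, all higher in BPA, against 30.6% of all genes (15.3% in each direction). Between BPA and TBTCl 9 differed, 8 higher and 1 lower, against 34.8% of all genes (16.7% higher and 18.1% lower). With upper-quartile factors the split was 8 higher and 4 lower for BPA against TCDD (all genes 2434 and 4859), 9 and 3 against PFOS (all genes 2210 and 3582) and 7 and 4 against TBTCl (all genes 2323 and 4553). With library size alone it was 10 and 3 against TCDD (all genes 2582 and 4494), 8 and 4 against PFOS (all genes 1983 and 3681) and 8 and 2 against TBTCl (all genes 2759 and 3533). Between BPA and TBTCl, with the replicate number as a block, 13 differed, as CTSZ, LIPA, MCOLN1 and NAGLU were added. Of all genes, 3930 were then higher and 4079 lower in BPA. For CdCl2 and its separate vehicle, the change under BPA minus the change under CdCl2 was tested, and 9 genes differed, 6 higher and 3 lower, against 16.5% of all genes (8.70% higher and 7.81% lower). Here upper-quartile factors gave 6 higher and 3 lower (all genes 1071 and 2069), and library size alone 4 and 3 (all genes 969 and 2169). With TMM scaling, CTSB, CTSL, ASAH1, GAA and TFE3 were higher in all 4 of these tests. With upper-quartile factors or library size alone, CTSB and CTSL were still called in all 4. ASAH1 was not called against TCDD under either scaling. GAA and TFE3 were not called in the CdCl2 test with library size alone. With no filter on low counts, ASAH1 was not called against TCDD, and GAA was not called against PFOS or in the CdCl2 test. Of CTSB, the mean was 1847 ± 76.5 CPM in BPA, against 609 ± 101 CPM in TCDD, 547 ± 71.6 CPM in TBTCl (SD, n = 4 each) and 456 to 505 CPM in PFOS. The log2 differences were 1.60, 1.76 and 1.96 in that order, with edgeR adjusted p values of at most 1.77e-10. HEXA was the gene lower in BPA than in TBTCl, at 57.7 ± 2.88 against 78.8 ± 6.16 CPM (log2 difference -0.45; edgeR adjusted p = 0.00921).

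TCDD raised MANBA, ASAH1 and ATP6V0E1 and lowered SMPD1. MANBA had 73.6, 78.9, 85.2 and 70.4 CPM in TCDD, against 51.9, 57.0, 62.5 and 52.8 CPM in DMSO, without overlap (log2 fold change 0.46 ± 0.10; edgeR adjusted p = 0.0023). ASAH1 had 200, 204, 206 and 187 CPM in TCDD, against 148, 172, 134 and 130 CPM in DMSO (log2 fold change 0.45 ± 0.11; edgeR adjusted p = 0.00583). The groups were again separate, and the TCDD level of ASAH1 lay between those of BPA and DMSO. ATP6V0E1 had 88.2, 92.3, 82.8 and 72.7 CPM in TCDD, against 68.3, 69.7, 58.7 and 57.3 CPM in DMSO (log2 fold change 0.40 ± 0.12; edgeR adjusted p = 0.0364). It was not called without TCDD replicate 1, 2 or 3 or without DMSO replicate 3 or 4, when the edgeR adjusted p lay between 0.0641 and 0.133.

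SMPD1, the acid sphingomyelinase, was the gene that fell under TCDD. It had 17.9, 20.8, 15.9 and 19.2 CPM in TCDD, against 22.9, 26.0, 32.5 and 21.6 CPM in DMSO. All TCDD libraries lay below all DMSO libraries, with a log2 fold change of -0.48 ± 0.14 (edgeR adjusted p = 0.0261). Without DMSO replicate 3 or TCDD replicate 3 the edgeR adjusted p was 0.142 and 0.0975, and with water in place of DMSO the change was -0.33 (edgeR adjusted p = 0.172). CTSB had 544, 747, 620 and 523 CPM in TCDD, all above the highest DMSO library at 509 CPM, and just missed the threshold (log2 fold change 0.34 ± 0.11; edgeR adjusted p = 0.0522). TFE3 and TFEB had log2 changes of -0.01 and -0.07 under TCDD, with 95% intervals from -0.36 to 0.34 and from -0.46 to 0.31. Without DMSO replicate 3, 2 genes in all were called in place of 4. With no filter on low counts MANBA, ASAH1 and ATP6V0E1 had edgeR adjusted p values of 0.0717, 0.0902 and 0.168, and SMPD1 alone was called. MANBA overlaps 5 other annotated entries, 3 of them on the opposite strand, and ASAH1 overlaps ASAH1-AS1. The sources used here do not say whether the counting used strand, so these counts are uncertain to that extent.

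TCDD was then compared with the chemicals in the same vehicle that changed none of the genes. TCDD and PFOS differed in 5 genes, with MANBA, ASAH1, ATP6V0E1 and CTSB higher and SMPD1 lower in TCDD, against 13.0% of all genes (8.29% higher and 4.71% lower). Leaving out single TCDD or PFOS libraries gave 2 to 4 called genes, the fewest without TCDD replicate 3 or PFOS replicate 2 or 3. Of all genes, these fits called 1617 to 2515. TCDD and TBTCl also differed in 5 genes, with MANBA and SCARB2 higher in TCDD and SMPD1, TFEB and CTSD lower, against 12.8% of all genes (7.26% higher and 5.58% lower). Without TBTCl replicate 4, or without TCDD replicate 3, 2 genes were called, and without TCDD replicate 4, 3. SMPD1 averaged 18.4 ± 2.09 CPM in TCDD and 30.4 ± 4.39 CPM in TBTCl (SD, n = 4 each; log2 difference -0.72; edgeR adjusted p = 0.000656).

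Under TBTCl no gene of the set was called, with 6 at an unadjusted edgeR p under 0.05, against 2937 of the 18849 tested genes. TFEB had 15.7, 11.5, 7.87 and 14.5 CPM in TBTCl, against 9.14, 7.41, 9.46 and 8.95 CPM in DMSO, and replicate 3 lay within the DMSO range (log2 change 0.50; edgeR adjusted p = 0.202). CTSD had 194, 209, 302 and 618 CPM in TBTCl, against 161, 225, 287 and 211 CPM in DMSO. The mean difference rested on replicate 4: the log2 change was 0.58 with it and 0.09 without it. For CTSH, at 225, 217, 216 and 372 CPM in TBTCl against 164 to 210 CPM in DMSO, it was 0.43 with replicate 4 and 0.20 without it. ATP6V0E1 had 109 CPM in that library, against 67.0 to 73.4 CPM in the other 3, and its change was 0.32 with it and 0.13 without it. ATP6V1E1 averaged 104 ± 14.2 CPM in TBTCl and 84.6 ± 7.77 CPM in DMSO (SD, n = 4 each; edgeR adjusted p = 0.186). DESeq2 called 1 gene, CTSZ.

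Under PFOS edgeR called no gene of the set, while CTSZ alone was called by DESeq2 and alone fell below an unadjusted p of 0.05. Of the 18849 tested genes, 1043 fell below that unadjusted edgeR p. Apart from CTSZ, the log2 changes of the set ran from -0.17 to 0.12. Under CdCl2 none of the set was called by edgeR or DESeq2. Of all tested genes 940 had an unadjusted edgeR p under 0.05, and of the set 1. This was CTSH, at 148, 136, 106 and 168 CPM in CdCl2, against 213, 168, 229 and 229 CPM in water (log2 change -0.59 ± 0.17; edgeR adjusted p = 0.688). The highest CdCl2 library lay just below the lowest water library, so that the groups barely did not overlap. Of the 33 genes, 25 had positive log2 values in CdCl2, against 9406 of the 18849 tested genes. They included all 8 pump subunits, between 0.09 and 0.32. All 4 membrane proteins and channels, all 4 genes of lipid hydrolysis and both transcription factors were positive as well, and none was called. For DMSO against water neither edgeR nor DESeq2 called any of the 33 genes, with CTSZ alone at an unadjusted p under 0.05. Over all genes edgeR called 0% and DESeq2 called 1 gene, and 431 had an unadjusted edgeR p under 0.05.

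The genes differed in how much they varied between libraries of a group. LIPA had the largest spread, with a median coefficient of variation over the 7 groups of 27.8%, followed by GLA (22.4%), CTSZ (22.3%), CTSA (22.2%) and CTSD (21.9%). CTSB had the smallest, at 5.21%. LIPA had 161, 278, 288 and 160 CPM in PFOS replicates 1 to 4, 178, 284, 313 and 164 CPM in TBTCl, and 173, 316, 279 and 168 CPM in DMSO. The BPA libraries had 136, 173, 192 and 160 CPM. In these 4 groups replicates 2 and 3 were above replicates 1 and 4. The water libraries had 173, 292, 223 and 162 CPM, in the same arrangement, while TCDD (238, 180, 167 and 156 CPM) and CdCl2 (218, 239, 328 and 242 CPM) differed from it. LIPA spans the IFIT genes on the opposite strand, from which its reads could be told apart only with strand. CTSA showed another arrangement. Replicate 4 was the lowest in PFOS (298 CPM), TBTCl (294 CPM), DMSO (294 CPM), CdCl2 (326 CPM) and water (255 CPM), but not in TCDD or BPA.

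**Figure D4:**
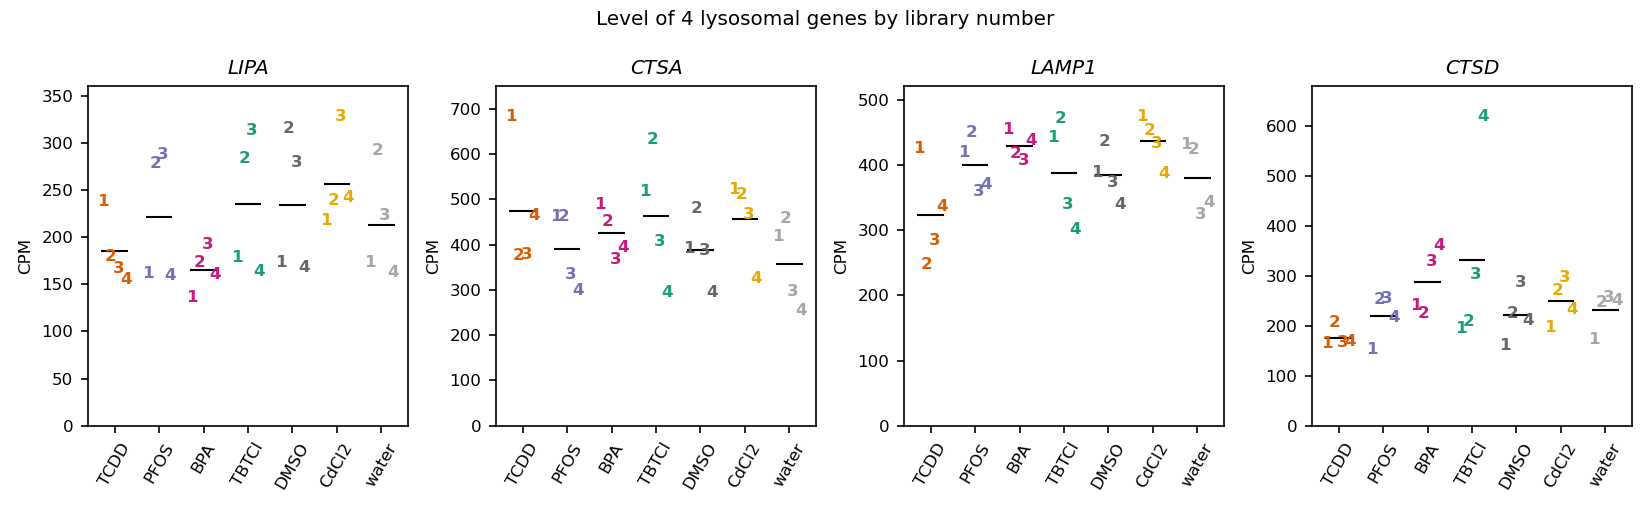
CPM with TMM scaling (vertical axes, each from 0) of LIPA, CTSA, LAMP1 and CTSD, with each library drawn as its replicate number and a line for the group mean. LIPA replicates 2 and 3 lie above replicates 1 and 4 in PFOS, BPA, TBTCl, DMSO and water, and TBTCl replicate 4 lies alone at 618 CPM for CTSD.

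A wider list of 139 other lysosomal genes, in 6 groups by role, was read for the same comparisons, and 130 of them were tested. BPA raised 39 and lowered 11 of the 130, against the background of 17.3% of all genes raised and 17.6% lowered. In all 38.5% of the 130 were called, near the 35.0% of all genes. Among 31 tested membrane proteins, 13 rose and 2 fell (48.4% called). SLC29A3, a nucleoside transporter, averaged 46.4 ± 1.12 CPM in BPA and 17.9 ± 2.52 CPM in DMSO (SD, n = 4 each; edgeR adjusted p = 2.74e-09). SLC66A1, which exports cationic amino acids, averaged 71.4 ± 10.2 CPM in BPA and 32.0 ± 1.67 CPM in DMSO (edgeR adjusted p = 2.36e-07). LAMP3 ranged from 1.96 to 10.8 CPM in BPA, against 0.0318 to 0.174 CPM in DMSO, where its counts were near the floor. MFSD12, a cysteine importer, averaged 89.8 ± 4.23 CPM in BPA and 47.8 ± 4.53 CPM in DMSO (edgeR adjusted p = 4.55e-07). ABCB9 and SLC15A3 were the 2 that fell.

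Of 40 other hydrolases tested, 9 rose and 4 fell under BPA, in all 32.5%, near the 35.0% of all genes. The acid phosphatase ACP2 stood at 61.7 ± 3.56 CPM in BPA and 33.4 ± 2.66 CPM in DMSO (SD, n = 4 each; edgeR adjusted p = 1.71e-07). The sulfatases ARSG, SGSH and ARSA rose by 1.06, 0.49 and 0.47 on the log2 scale. GM2A, the activator protein that HEXA needs to degrade GM2, fell to 54.1 ± 10.5 CPM in BPA, against 111 ± 25.2 CPM in DMSO (edgeR adjusted p = 0.000148). CTSV and HYAL1 fell as well.

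Of 14 other proton pump subunits tested, 4 rose and 3 fell under BPA, against 17.3% and 17.6% of all genes. ATP6V0B stood at 152 ± 8.37 CPM in BPA and 98.1 ± 13.9 CPM in DMSO, and ATP6V0A2 at 30.2 ± 4.07 CPM in BPA and 18.5 ± 1.53 CPM in DMSO (SD, n = 4 each; edgeR adjusted p = 0.00142 and 5.66e-05). ATP6V0D2 and ATP6V1E2 also rose, ATP6V0D2 from very few counts, at 0.826 to 8.09 CPM in BPA against 0.116 to 0.191 CPM in DMSO. ATP6V1C2 fell to 5.21 ± 2.22 CPM in BPA, against 14.6 ± 3.21 CPM in DMSO (edgeR adjusted p = 0.00319), and ATP6V0E2 and TCIRG1 fell as well. Of 7 assembly factors, WDR7 and ROGDI rose and CCDC115 fell.

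Of 15 genes for delivery of enzymes to the lysosome, 4 rose and none fell under BPA, in all 26.7%, below the 35.0% of all genes. They were the adaptors GGA2 and GGA1 and the sorting receptors SORL1 and IGF2R. IGF2R, which carries mannose 6-phosphate-tagged enzymes, averaged 946 ± 47.7 CPM in BPA and 645 ± 115 CPM in DMSO (SD, n = 4 each; edgeR adjusted p = 0.0455). Of 23 genes of nutrient signalling and TFEB control, 7 rose and 1 fell, in all 34.8%. FLCN, which acts on the Rag GTPases that hold TFEB and TFE3 at the lysosome, averaged 37.2 ± 6.64 CPM in BPA and 21.0 ± 1.74 CPM in DMSO (edgeR adjusted p = 0.00024). MTOR averaged 191 ± 12.8 CPM in BPA and 108 ± 13.9 CPM in DMSO (edgeR adjusted p = 0.0113). RHEB and PPP3R1 rose by 0.67 and 0.40 on the log2 scale, and RRAGA fell to 79.1 ± 7.83 CPM in BPA, against 114 ± 13.5 CPM in DMSO (edgeR adjusted p = 0.0017).

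**Figure D5:**
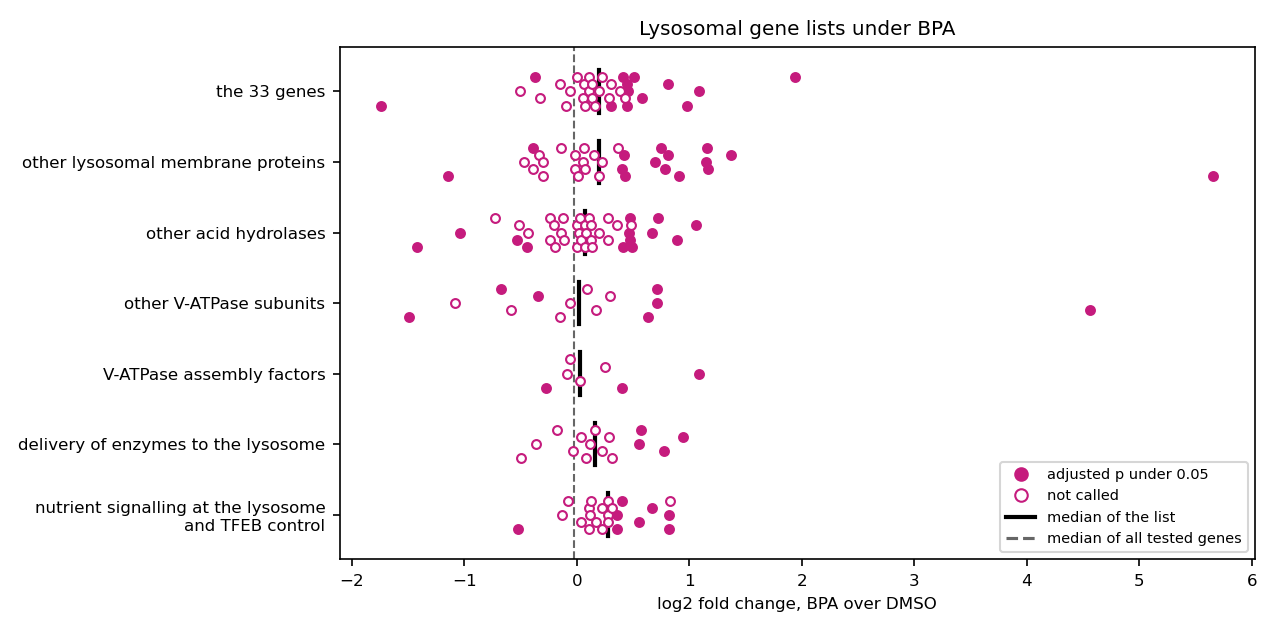
Log2 fold change of BPA over DMSO (horizontal axis) for the 33 genes and for 6 lists of other lysosomal genes, with a point per tested gene, filled where the adjusted p was under 0.05, and a black line for the median of each list. The dashed line is the median of all tested genes, -0.02, and the 2 points farthest to the right are LAMP3 and ATP6V0D2, both near the floor in DMSO.

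TCDD raised 9 and lowered 4 of the 130 other lysosomal genes, against the background of 6.45% and 2.80% of all genes. CTSC, the protease that activates granule serine proteases, averaged 245 ± 38.2 CPM in TCDD and 126 ± 11.8 CPM in DMSO (SD, n = 4 each; edgeR adjusted p = 4.54e-07). SORL1 averaged 504 ± 99.0 CPM in TCDD and 142 ± 40.8 CPM in DMSO (edgeR adjusted p = 2.20e-05). CTSS, ARSG, ATP6V0E2, VPS35, MFSD12, LAPTM4B and SLC29A3 also rose. GGA2 fell to 120 ± 9.71 CPM in TCDD, against 161 ± 13.2 CPM in DMSO (edgeR adjusted p = 0.0085), and TMEM199, GM2A and FNIP2 fell too. GGA2 and ATP6V0E2 were called in opposite directions under TCDD and BPA, where ATP6V0E2 had 460 ± 106 CPM in TCDD, 135 ± 11.0 CPM in BPA and 216 ± 46.1 CPM in DMSO. CdCl2, PFOS and TBTCl changed none of the 130 genes by edgeR, and DESeq2 called 0, 0 and 2. At an unadjusted edgeR p under 0.05 were 5, 4 and 22, against 940, 1043 and 2937 of the 18849 tested genes.

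Macrophages, which are rich in lysosomes, were checked by 6 markers. PTPRC, ADGRE1, MARCO, CSF1R and CD163 reached at most 0.157 CPM in any library. CD14 averaged 10.9 ± 5.35 CPM in BPA and 1.45 ± 0.165 CPM in DMSO (SD, n = 4 each; edgeR adjusted p = 2.63e-08), and made up most of the summed level of the 6, which ran from 5.22 to 17.0 CPM in BPA and from 1.29 to 1.80 CPM in DMSO. CD14 rose under TBTCl too, to 4.89 ± 0.971 CPM, against 1.45 ± 0.165 CPM in DMSO (SD, n = 4 each, edgeR adjusted p = 0.00332). Hepatocyte markers moved with BPA as well. Their summed level was 26710 to 42350 CPM in BPA and 39439 to 72448 CPM in DMSO, with AFP, TF and FGB lower and HNF4A higher in BPA at an adjusted p under 0.05. Their part in the lysosomal results was not tested.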

How the data were processed

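RNA from HepG2 cells was sequenced as poly(A) libraries (paired reads of 150 bases). The authors deposited 1 table of raw read counts per gene, 1 column per library, for which the submitters' processing notes name fastp, STAR, HTSeq, DESeq2 and GRCh38. No source used here gives the annotation release or the strand setting. The last row of the table had no line break and was left out, which left 63139 of 63140 rows.

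Counts were tested with edgeR 4.0.16 in R 4.3.3: TMM scaling, filterByExpr with a minimum count of 10 (18849 genes kept, 99.96% of counts), and 1 quasi-likelihood fit of 7 group means to 28 libraries (21 residual degrees of freedom). Calls are at a Benjamini-Hochberg adjusted p under 0.05 over all tested genes. SEs are the log2 fold change divided by the root of the F statistic. Alternatives used DESeq2 1.42.0, other scalings, no filter, a replicate block, fewer groups, water as control, and each library left out. CPM is counts scaled to the library's TMM-corrected total. TPM used the union of a gene's GENCODE 29 exons as its length, which was found for 58126 rows.

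On counts simulated for BPA against DMSO (18849 genes), 50 genes were changed at each of 4 folds. Recovered were 10% of genes changed 1.3-fold, 16% at 1.5-fold, 74% at 2-fold and 96% at 4-fold, and 3.92% of calls were false. In the measured comparison 6588 genes were called, and the adjustment of p depends on how many genes change. The recovery therefore does not give the power of the BPA comparison.

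Replicate numbers come from the labels. Same-numbered libraries deviated together in every pair (correlation over 0.1) for BPA, PFOS and TBTCl against DMSO and for BPA against TBTCl. The same held for CdCl2 against water and DMSO against water, so all of these were treated as paired in the block. The 33 genes and the other lists were chosen with earlier results of these data known. Genes of the other lists are named by smallest p, up to 4 per list and direction in each comparison. Of the genes this rule names, 1 is not reported here.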

Additional observations from a re-analysis of the deposited data

Results flagged for a closer look

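In 19 of 231 gene and group combinations (8.23%) 1 library lay far from the other 3 by Dixon's criterion, which chance meets in about 1 in 20 groups. Values are CPM, and the range is that of the other 3 libraries.

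In TCDD, replicate 1 was high for ATP6V1C1 (71.5, range 51.2 to 54.3), ATP6V1E1 (97.7, range 80.7 to 82.3) and ATP6V1H (54.3, range 46.1 to 47.4), and replicate 2 was high for CTSD (207, range 164 to 169). In PFOS, replicate 2 was high for TPP1 (156, range 113 to 118). In BPA, replicate 4 was high for GAA (344, range 268 to 270) and low for ATP6V1D (24.3, range 30.2 to 31.4). BPA replicate 3 was low for NEU1 (370, range 423 to 425), and replicate 2 was high for ATP6V1B2 (129, with the others at 120).

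In TBTCl, replicate 4 was high for CTSH (372, range 216 to 225) and ATP6V0E1 (109, range 67.0 to 73.4), and replicate 3 was low for ATP6V0D1 (94.3, range 133 to 139). In DMSO, replicate 3 was low for NEU1 (330, range 413 to 418). In CdCl2, replicate 4 was high for MANBA (61.9, range 49.7 to 51.4) and low for ATP6V0D1 (86.7, range 118 to 119). CdCl2 replicate 3 was high for CTSL (119, range 88.2 to 91.9), and replicate 1 was low for NAGLU (49.3, range 56.3 to 57.6). In water, replicate 1 was low for CTSD (172, range 247 to 257), and replicate 4 was high for GAA (238, range 195 to 196).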

How the results depend on the processing

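Of 3102 values recomputed under alternatives, 3036 kept their side of the threshold, 38 lost a call and 28 gained one. No called value reversed, while 258 values that were called in neither fit changed sign. With no filter on low counts, 1 of the 33 genes was called for each of TCDD, PFOS and TBTCl against DMSO. Of all genes, 1162 rose and 560 fell for TCDD, 0 and 78 for PFOS and 59 and 52 for TBTCl. For TCDD against PFOS 2 of the 33 were called (all genes 1513 and 704), and against TBTCl 3 (1345 and 788). With only the groups compared in the fit, 2 of the 33 were called for TCDD against DMSO (all genes 1122 and 504). That fit gave 3 for TCDD against PFOS (all genes 1408 and 648) and 1 for TCDD against TBTCl (667 and 252). The replicate block and DESeq2 each called 1 for PFOS and 1 for TBTCl, CTSZ in each case. Of all genes, the block called 0 higher and 84 lower for PFOS and 102 and 77 for TBTCl. DESeq2 called 1 and 126 for PFOS and 145 and 107 for TBTCl. The block gave 16 genes for BPA (12 higher and 4 lower), against 4043 higher and 4041 lower of all genes. It gave 13 for BPA against TBTCl (all genes 3930 and 4079) and 11 for BPA minus CdCl2 (all genes 2504 and 2328). For TCDD, whose numbers did not pair with DMSO (correlations from -0.212 to 0.439), the block gave 6, adding CTSB and NAGLU (all genes 1688 and 1034). For BPA against PFOS, also unpaired, it gave 13 (all genes 3722 and 3551). Of all 28 libraries, 23 correlated best with their own number.

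With single libraries left out, 10 to 14 genes were called for BPA against DMSO, 2 to 5 for TCDD, 0 to 1 for TBTCl and 0 for CdCl2, PFOS and DMSO against water. Of all genes, these fits called 5253 to 6110 for BPA, 1221 to 1677 for TCDD and 5 to 160 for TBTCl. They called 3 to 10 of all genes for CdCl2, 0 to 2 for PFOS and 0 for DMSO against water. The direct comparisons gave 13 to 17 for BPA against TCDD, 9 to 12 against PFOS, 9 to 12 against TBTCl, 7 to 9 for BPA minus CdCl2, 2 to 4 for TCDD against PFOS and 2 to 6 for TCDD against TBTCl. Of all genes, they called 6118 to 6845 for BPA against TCDD, 4548 to 5544 against PFOS and 4998 to 6905 against TBTCl. For BPA minus CdCl2 this was 2213 to 3609, for TCDD against PFOS 1617 to 2515 and for TCDD against TBTCl 1838 to 2682. The cause of these changes was not tested. With water in place of DMSO, 12 genes were called for BPA, 11 higher and 1 lower, against 2976 higher and 2983 lower of all genes. For TCDD 4 were called, all higher (all genes 1138 higher and 573 lower). These were MANBA, ASAH1, ATP6V0E1 and SCARB2, while SMPD1 was no longer called. At 22.0% biological variation and 4 libraries per group, changes of 1.5-fold or less were mostly not recovered in the simulated counts.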

Other observations

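Several genes of the other lysosomal lists were below 1 CPM and are given as values. ATP6V0C, the ring subunit of the proton pump, averaged 0.110 CPM in BPA and 0.170 CPM in DMSO. CLN3 averaged 0.305 CPM in BPA and 0.416 CPM in DMSO, DPP7 0.542 CPM in BPA and 0.740 CPM in DMSO, and CD68 0.166 CPM in BPA and 0.0930 CPM in DMSO. These 4 were picked after their values were seen. The values describe counted reads only. Whether reads of these 4 genes went uncounted was not tested, so a low value here does not show low expression.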
